A study of Mus musculus with 60 samples.

Results

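Transcripts of 10 mouse desmosome genes were followed in fibroblasts during the first days of OSKM reprogramming and under inhibitors of TGFβ family receptors. The genes were taken by symbol: the desmosomal cadherins Dsg2, Dsc2 and Dsc3, the armadillo proteins of the plaque Jup, Pkp1, Pkp2 and Pkp3, the plakins Dsp and Ppl, and the tetraspan membrane protein Perp. Each symbol matched 1 row among the 56980 gene rows of both deposited count tables, so all 10 of 10 genes were measured in all 60 libraries. The filter on low counts was passed by 7 of the genes in the reprogramming table (Dsc2, Jup, Pkp1, Pkp2, Dsp, Ppl and Perp), the same without Pkp1, or 6, passed it in the inhibitor table, and Pkp3, Dsg2 and Dsc3 passed it in neither.

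Desmosomes are the button-like junctions that tie the intermediate filaments of neighbouring epithelial and heart muscle cells together. Desmogleins and desmocollins cross the gap between the cells, plakoglobin (Jup) and the plakophilins bind their tails, and desmoplakin (Dsp) links this plaque to the keratins. Fibroblasts do not normally build desmosomes, and gain of epithelial junction genes is a known early step when fibroblasts are reprogrammed. Jup also serves in adherens junctions, Pkp2 is known from heart and endothelial cells, and Perp was first described as a p53 target.

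For each of 20 groups 3 libraries were made, 12 in a reprogramming experiment and 8 in an inhibitor experiment. In the first, tail tip fibroblasts labelled 4FJ_ERCC1_(d/-), from a male of 8 weeks and here called D/KO, and fibroblasts labelled 4FJ_(+/-)_OCT4-GFP, from a female of 22 weeks and here called WT, were taken on day 0, 2 and 4 after doxycycline (2 µg/ml). This was done in plain medium and with VC, which is ascorbic acid (50 µg/ml) with CHIR99021 (3 µM). Both carry a doxycycline-driven OSKM transgene. The WT group differs from D/KO in line, sex and age as well as in Ercc1, and these cannot be told apart. In the second, D/KO cells labelled ERCC1_(d/-) (female, 4 weeks) were left as controls or given Repsox or Vactosertib at 0.1 µM, or DMH-1 or A83-01 at 1 µM, for 3 days, and were set beside control cells labelled ERCC1_(+/+) (female, 14 weeks) from tail tip (WT control) and from skin (WT skin control). A further group, WT 4F TGFB, held 4FJ_(+/-)_OCT4-GFP cells (female, 22 weeks) with a treatment given only as TGFB and no matched control, and its values are given without a test. The labels do not say whether the 3 libraries of a group came from separate cultures or animals, so the p-values measure the spread between libraries, which may be technical.

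Libraries held 16538374 to 18484951 counts in the reprogramming table and 17102639 to 30599138 in the inhibitor table, and levels are counts scaled to a common library size (CPM) after TMM scaling within each table. Fibroblast markers were abundant in all groups (at least 32873 CPM summed over 8 genes). The 3 endothelial markers Pecam1, Cdh5 and Kdr summed to 484 to 567 CPM at D/KO day 0 against at most 0.766 CPM at WT day 0. The 3 immune markers stood the other way, at 5.83 to 9.61 CPM in D/KO and 61.9 to 119 CPM in WT at day 0, and the 3 skeletal muscle markers at 20.8 to 34.4 and 1.82 to 3.01 CPM, with Myod1 and Myog at 0 in both. These differences move with every D/KO to WT comparison of that table, and their part in the desmosome gene values was not tested. Among the inhibitor libraries, 3 stood apart from their own group: Repsox replicate 2, whose variance against the others was 163 and 176 times counting noise beside 5.48 between those, WT skin control replicate 1 (397 and 301 times beside 6.27) and, less far, WT control replicate 2 (61.0 and 96.6 times beside 11.7). Ddx3y was at 60.1 to 105 CPM in the D/KO reprogramming groups and at 0 in the other groups, as the sex labels say, whereas Ercc1 was lower in D/KO than in WT at day 0 (14.1 against 20.5 CPM) but not in the controls of the inhibitor table (20.6 against 18.04 CPM), where a count over the whole gene cannot check the alleles. In bulk RNA, a change in the number of cells of a type and a change of RNA per cell cannot be told apart.

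In the coordinates of the files (GRCm39), the cadherin genes lie side by side, with Dsc3 (ENSMUSG00000059898) at chr18:20093987-20135408, Dsc2 (ENSMUSG00000024331) at chr18:20163690-20192611 and Dsg2 (ENSMUSG00000044393) at chr18:20691131-20737578. The plaque genes are spread over the genome, with Jup (ENSMUSG00000001552) at chr11:100259784-100288589, Pkp1 (ENSMUSG00000026413) at chr1:135799133-135846945, Pkp2 (ENSMUSG00000041957) at chr16:16031182-16090576 and Pkp3 (ENSMUSG00000054065) at chr7:140658131-140670423. Of the plakins, Dsp (ENSMUSG00000054889) lies at chr13:38335270-38382553 and Ppl (ENSMUSG00000039457) at chr16:4904155-4950285, and Perp (ENSMUSG00000019851) lies at chr10:18720768-18732821. The counts are sums over all exons of a gene, so isoforms and untranslated parts were not separated.

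Without reprogramming, the desmosome transcripts of both cell lines were mainly Jup. Per kilobase of exon, Jup was the highest of the 10 genes in 60 of 60 libraries, with 37.9% to 90.4% of their summed level (median 67.7%). At D/KO day 0 the level per length was 25.2 ± 3.66 CPM per kb for Jup (mean ± SD, n = 3, as for the means below), followed by Pkp2 at 1.55 ± 0.314, Ppl at 0.516 ± 0.206, Perp at 0.339 ± 0.149, Dsc2 at 0.261 ± 0.125, Pkp1 at 0.194 ± 0.034 and Dsp at 0.174 ± 0.0458 CPM per kb. The last 5 lay within about their own spread of the neighbour in this order. At WT day 0 the order was another one: Jup at 11.9 ± 0.571 CPM per kb was followed by Ppl at 2.38 ± 0.323 and Dsp at 2.25 ± 0.342, whose ranges overlapped, and then by Pkp2 at 0.705 ± 0.133 CPM per kb. At D/KO day 4 + VC Jup, at 82.1 ± 11.5 CPM per kb, was followed by Perp at 66.7 ± 8.72, Pkp1 at 35.7 ± 3.04 and Dsp at 9.87 ± 1.57, while Dsc2, Ppl and Pkp2 lay between 0.714 and 0.990 CPM per kb.

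**Figure D1:**
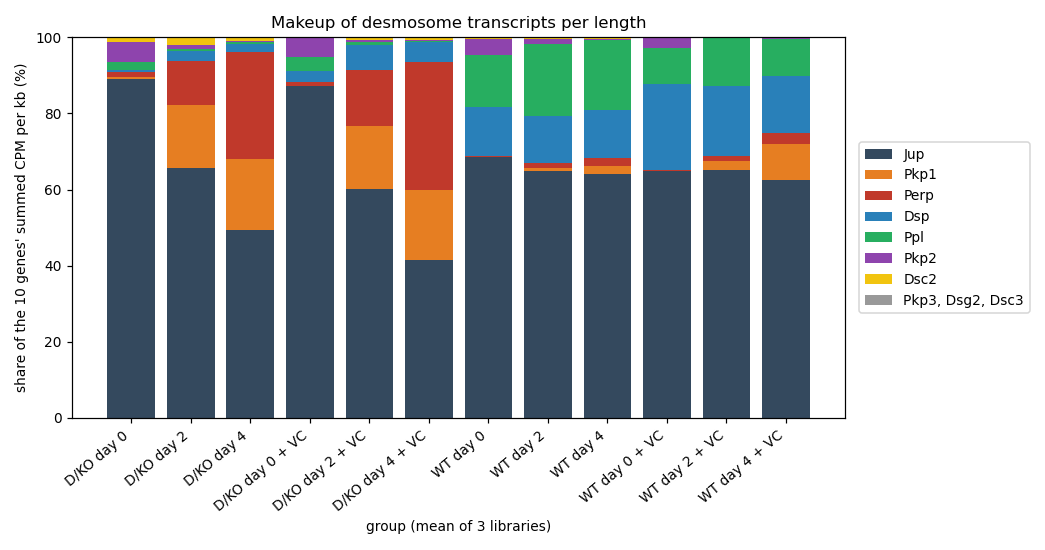
Share of each gene in the summed level of the 10 desmosome genes (CPM per kb of exon, in percent), as the mean of 3 libraries for each of the 12 reprogramming groups. Jup takes 88.9% at D/KO day 0 and 41.5% at D/KO day 4 + VC, where Perp and Pkp1 fill most of the rest, while in WT cells Dsp and Ppl hold the next places.

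Over 4 days of doxycycline the summed level of the 10 genes rose in D/KO cells from 28.3 ± 3.50 to 117 ± 8.36 CPM per kb, and with VC from 18.2 ± 4.66 to 197 ± 14.4 CPM per kb. In WT cells it went from 17.4 ± 0.665 to 33.1 ± 1.78, and with VC from 17.5 ± 0.669 to 43.5 ± 0.753 CPM per kb. By the quasi-likelihood test of edgeR, with Benjamini-Hochberg adjustment over 15832 genes, Dsp, Jup, Pkp1, Dsc2 and Perp were higher than at day 0 in D/KO cells at day 2 and at day 4, without and with VC, and Pkp2 was lower in all but day 4 + VC, where it was lower against day 0 without VC only. That is 5 of 7 genes tested higher and 1 lower at day 2 (14.3% and 13.2% of all genes tested), 5 and 1 at day 4 (18.3% and 18.7%), 5 and 1 at day 2 + VC (23.8% and 23.6%) and 5 and 0 at day 4 + VC (27.9% and 26.2%). The median log2 fold change of the 7 genes at these steps was 2.22, 1.88, 3.40 and 4.16, beside medians of all genes between -0.01 and 0.01. The medians with VC depended on the baseline. Against day 0 without VC the middle value was that of Dsc2, at 1.44 at day 2 + VC and 1.93 at day 4 + VC. The days of one arm share their day 0 libraries, so they are given side by side and are not independent. The summed 8 fibroblast markers were lower in the same libraries, from 79407 to 118404 CPM at D/KO day 0 to 37006 to 38599 CPM at day 4, and with VC from 183050 to 252512 CPM to 32873 to 34058 CPM. In WT cells they stood at 51486 to 53290 CPM at day 0 and 45328 to 47550 CPM at day 4, and with VC at 154847 to 170598 CPM and 60431 to 71496 CPM. Their part in the desmosome gene values was not tested.

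Pkp1, the plakophilin of stratified epithelia, had the largest fitted fold change of the 7 tested genes against day 0 of the same medium in D/KO cells. Its CPM at D/KO day 0 were 1.16, 0.938 and 0.825, at day 2 they were 49.2, 53.6 and 69.3, and at day 4 they were 107, 93.9 and 127. With VC the 3 day 0 libraries held 2, 0 and 2 reads, and day 4 reached 185, 162 and 191 CPM. All D/KO libraries of a later day lay above all of the day before, in both media. The log2 fold change at day 4 was 6.80 ± 0.28 (SE, adjusted p = 9.99e-21) and at day 4 + VC 10.81 ± 0.38 (adjusted p = 6.99e-23), the latter against a day 0 of 4 reads in all.

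The sizes with VC depended on the baseline, since VC itself moved these genes at day 0. Against day 0 without VC the day 4 + VC log2 fold change in D/KO cells was 7.52 in place of 10.81 for Pkp1, 7.60 in place of 8.51 for Perp, 1.70 in place of 2.37 for Jup and 5.82 in place of 4.16 for Dsp, all still called, and Pkp1 no longer stood above Perp.

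Perp, a tetraspan protein of the desmosomal membrane, followed Pkp1. In D/KO cells its libraries stood at 0.516, 0.997 and 0.471 CPM at day 0, at 14.6, 15.03 and 16.5 CPM at day 2, and at 64.5, 76.1 and 53.7 CPM at day 4. With VC they stood at 0.324, 0.603 and 0.140 CPM at day 0 and at 118, 149.8 and 123 CPM at day 4. No 2 days overlapped in either medium. The log2 fold changes at day 4 were 6.59 ± 0.32 without VC (adjusted p = 1.72e-18) and 8.51 ± 0.36 with it (adjusted p = 9.11e-21). Of 8 other p53 targets, 0 were higher and 4 lower at day 4 (Bax, Ccng1, Zmat3 and Sesn2; 18.3% and 18.7% of all genes), and 0 higher and 4 lower at day 4 + VC (Mdm2, Zmat3, Sesn2 and Trp53inp1; 27.9% and 26.2%).

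**Figure D2:**
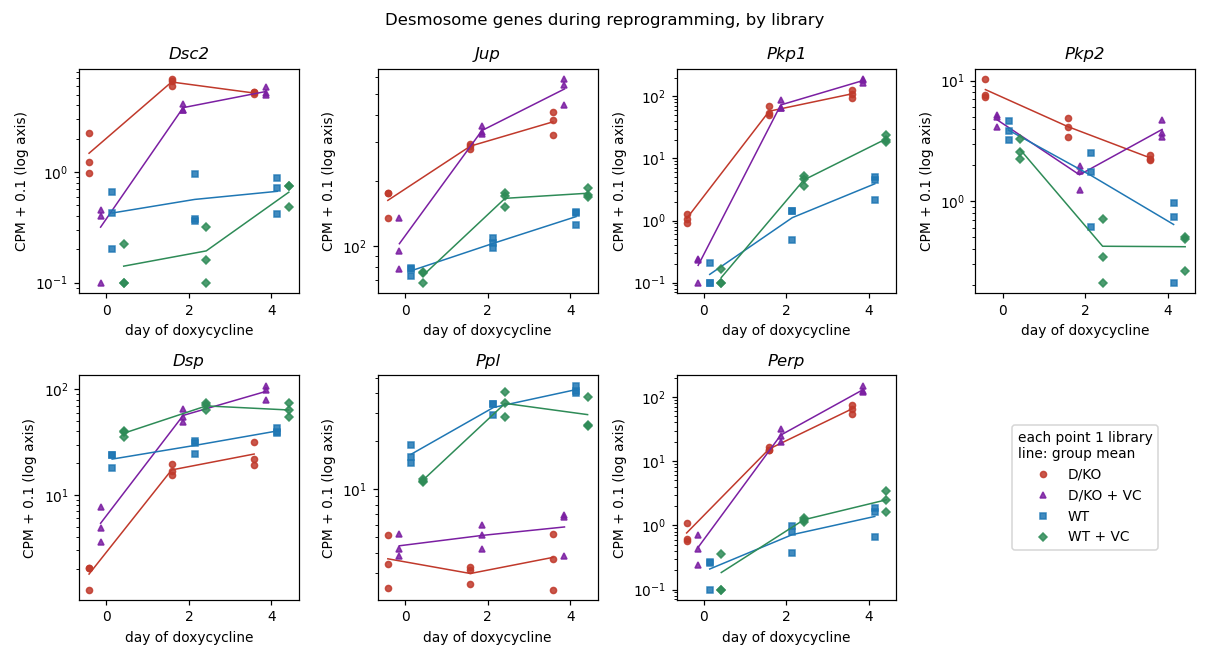
CPM + 0.1 (log axis) of the 7 desmosome genes that passed the filter, by day of doxycycline; each point is 1 library, lines join group means of 3 libraries, and points are shifted sideways by arm. Pkp1 and Perp reach higher levels in D/KO cells (179 and 130.3 CPM on average at day 4 + VC) than in WT cells (20.6 and 2.40 CPM), Pkp2 falls in all arms by day 2 and is higher again at D/KO day 4 + VC, still below day 0 without VC, and Ppl climbs in WT cells.

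Dsp, the plakin that ties the plaque to keratin, started lower in D/KO than in WT cells in both media. Its D/KO libraries held 1.93, 1.17 and 1.94 CPM at day 0, 15.3, 16.8 and 19.4 CPM at day 2, and 22.0, 19.2 and 31.7 CPM at day 4. With VC they held 7.64, 4.74 and 3.51 CPM at day 0, 49.3, 54.8 and 65.5 CPM at day 2, and 108, 78.7 and 99.2 CPM at day 4. In plain medium all day 4 libraries stayed below those of WT day 4 (38.6 to 42.7 CPM), while the day 4 + VC libraries lay above those of every WT group in the same table, where the highest was 73.9 CPM. The log2 fold change was 3.85 ± 0.24 at day 4 (adjusted p = 1.03e-15) and 4.16 ± 0.21 at day 4 + VC (adjusted p = 1.08e-18). Dsp shares 539 exon bases with Gm10129 on the opposite strand, and the counting is not stated to use strand, so reads of the pair cannot be told apart.

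Jup changed by a smaller factor from a high level. In D/KO cells it stood at 135, 175 and 176 CPM at day 0 and at 381, 412 and 325 CPM at day 4, and with VC it went from 94.4, 135 and 78.4 CPM to 551, 589 and 446 CPM. Day 0 and day 4 did not overlap in either medium. The log2 fold changes were 1.20 ± 0.13 (adjusted p = 1.32e-09) and 2.37 ± 0.13 (adjusted p = 3.73e-17).

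Dsc2 was the only cadherin of the 3 with counts to test, and its level stayed low. Its D/KO libraries held 33, 15 and 19 reads at day 0, 113, 118 and 107 reads at day 2 and 91, 98 and 95 reads at day 4. At day 4 + VC it held 109, 91 and 92 reads, against 0, 4 and 5 reads at day 0 + VC. These groups did not overlap, and the log2 fold change was 1.88 ± 0.40 at day 4 (adjusted p = 0.000251) and 4.59 ± 0.54 at day 4 + VC (adjusted p = 4.37e-09). The latter was 3.97 without day 0 + VC replicate 1, which held 0 reads, and 1.93 against day 0 without VC (adjusted p = 0.000119). Of its fellow cadherins, Dsg2 had a read in 5 of 60 libraries and at most 5 reads, and Dsc3 had one in 19 of 60 libraries and at most 10 reads. Neither gene could be tested, and a small change would not show at so few reads. Their highest levels, 0.264 CPM for Dsg2 and 0.575 CPM for Dsc3, lay far under those of Pkp1 and Perp at D/KO day 4. A count of 0 over the 3 libraries of D/KO day 0 allows up to 0.0606 CPM, a limit that covers counting error only. Dsg2 lies opposite Gm16090 over 330 exon bases.

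Among the plakophilins, Pkp2 went the other way from Pkp1. Its D/KO libraries held 7.48, 7.21 and 10.3 CPM at day 0, 4.03, 3.31 and 4.80 CPM at day 2, and 2.12, 2.09 and 2.32 CPM at day 4, without overlap between days. Its log2 fold change was -1.04 ± 0.33 at day 2 (adjusted p = 0.0174) and -1.93 ± 0.35 at day 4 (adjusted p = 2.58e-05). The day 2 call was lost without D/KO day 0 replicate 3 or day 2 replicate 1 or 2 (log2 fold changes of -1.03 to -0.86). With VC it fell by 1.57 ± 0.37 on the log2 scale at day 2 (adjusted p = 0.000658), and at day 4 its difference from day 0 + VC was -0.27 ± 0.34 (adjusted p = 0.522). Against day 0 without VC it was lower there as well (-1.12, adjusted p = 0.00511). The summed endothelial markers of the D/KO cells moved likewise, from 484 to 567 CPM at day 0 to 188 to 204 CPM at day 4, and with VC from 170 to 209 CPM through 101 to 123 CPM at day 2 to 283 to 384 CPM at day 4, and their part in the values of Pkp2 was not tested. Pkp3 had a read in 36 of 60 libraries and at most 14 reads. Its count over 3 libraries was 35 at D/KO day 4 + VC against 2 at day 0 + VC, a ratio of 13.5 with a counting interval (95%) of 3.46 to 116, and Gm72182 overlaps it on the other strand over 317 exon bases.

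Ppl, the plakin periplakin, showed no called change against day 0 of the same medium in D/KO cells. Its level there ran from 2.25 to 6.82 CPM over all 18 libraries. The log2 fold changes against day 0 were -0.31 ± 0.28 at day 2 (adjusted p = 0.454), 0.04 ± 0.27 at day 4 (adjusted p = 0.934), 0.22 ± 0.26 at day 2 + VC (adjusted p = 0.515) and 0.39 ± 0.25 at day 4 + VC (adjusted p = 0.195). Against day 0 without VC the last value was 0.68 and passed (adjusted p = 0.0237).

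The promoters of Jup and Dsp show what lies before the start of a gene that was already high in fibroblasts and of one that was low in D/KO cells and rose. Of the 10 genes, RefSeq promoters (build GRCm38.p6) matched these 2. The 250 bases before the start are printed 5′ to 3′ on the strand of the gene, from chr11:100397791-100398040 on the minus strand for Jup and chr13:38151044-38151293 on the plus strand for Dsp, which is an older build than the GRCm39 of the counts. Capitals mark CCACCC or its complement GGGTGG, letters that KLF-type factors such as Klf4 of the reprogramming set are known to bind.
Jup: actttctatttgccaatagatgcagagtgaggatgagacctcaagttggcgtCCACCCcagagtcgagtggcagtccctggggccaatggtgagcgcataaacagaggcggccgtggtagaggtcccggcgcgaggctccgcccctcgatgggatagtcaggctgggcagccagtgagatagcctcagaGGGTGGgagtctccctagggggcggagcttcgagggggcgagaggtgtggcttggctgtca
Dsp: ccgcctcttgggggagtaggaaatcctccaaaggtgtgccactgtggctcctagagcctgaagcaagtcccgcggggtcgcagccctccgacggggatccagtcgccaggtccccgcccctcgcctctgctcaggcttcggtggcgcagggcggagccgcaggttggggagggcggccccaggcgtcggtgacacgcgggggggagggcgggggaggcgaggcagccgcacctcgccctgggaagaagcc
Jup holds the letters at 198 bases before its start and, on the other strand, at 61, and Dsp does not hold them; 28.1% of the 32851 promoters of the same length hold them on either strand. Neither window holds CAGGTG, the E-box letters of Zeb and Snail factors (17.2% of promoters, both strands), or TGANTCA, the AP-1 letters (6.75%). Both windows are rich in G and C, with 62% in Jup and 72.4% in Dsp.

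In WT cells Jup, Pkp1, Perp and Ppl rose and Pkp2 fell at all 4 steps. Called higher were 4 of 7 genes at day 2 (Jup, Pkp1, Perp and Ppl; 6.26% of all genes), 5 at day 4 (with Dsp; 11.7%), 5 at day 2 + VC (13.8%) and 6 at day 4 + VC (with Dsc2; 22.7%). Called lower was Pkp2 at each of the 4 steps, among 4.3%, 12.8%, 13.7% and 22% of all genes. The median log2 fold change of the 7 genes was 0.52, 0.89, 1.19 and 1.38, beside medians of all genes of -0.01 to 0.03. Of the day 2 calls, 3 did not hold in every refit that left out 1 library: that of Jup (0.42 ± 0.13, adjusted p = 0.0296) was lost without WT day 0 replicate 1, 2 or 3 or day 2 replicate 2 (0.38 to 0.45), that of Pkp2 (-1.31 ± 0.37, adjusted p = 0.016) without day 0 replicate 2 or day 2 replicate 2 (-1.15 and -0.89), and that of Perp (2.47 ± 0.74, adjusted p = 0.0252) without day 0 replicate 3 or day 2 replicate 1 or 2 (1.88 to 2.38). Dsp at day 2 was at 0.43 ± 0.18 (adjusted p = 0.126).

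Ppl was called higher in WT cells at each step. It held 18.9, 15.8 and 14.6 CPM at day 0, 34.1, 28.9 and 34.3 CPM at day 2, and 41.4, 44.5 and 40.1 CPM at day 4, without overlap between days. With VC it held 10.99, 11.2 and 11.5 CPM at day 0, 28.3, 34.4 and 40.6 CPM at day 2 and 37.9, 24.7 and 25.1 CPM at day 4, where the last 2 days overlapped. The log2 fold change was 1.35 ± 0.21 at day 4 (adjusted p = 4.75e-06) and 1.38 ± 0.22 at day 4 + VC (adjusted p = 2.19e-06).

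Pkp1 rose in WT cells from almost no reads. The WT day 0 libraries held 0, 2 and 0 reads and the day 4 libraries 95, 39 and 81 reads, a ratio of 107 with a counting interval of 29.3 to 890 (adjusted p = 1.22e-10 by edgeR). With 1 library left out the fitted log2 value ran from 5.95 to 9.06, the highest without WT day 0 replicate 2, which held both reads. With VC the day 0 libraries held 1, 0 and 0 reads and those of day 4 held 319, 430 and 365 reads, a ratio of 973 with an interval of 174 to 38450 (adjusted p = 2.31e-17), and the fitted value ran from 9.03 to 11.50, the highest without day 0 + VC replicate 1, and was 8.92 against day 0 without VC. Its level at WT day 4 + VC was 20.6 ± 2.66 CPM, below the 179 ± 15.3 CPM of D/KO cells at that step. Perp was lower still, with 26, 43 and 62 reads at WT day 4 + VC and 4, 0 and 0 at day 0 + VC (log2 fold change 4.72 ± 0.62, adjusted p = 1.05e-07). All its day 0 + VC reads came from replicate 1, and the fitted value ran from 4.15 to 8.41 with 1 library left out, the highest without that one. At 2.40 ± 0.913 CPM it stood far under the 130.3 ± 17.0 CPM of D/KO cells.

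Dsp and Jup in WT cells rose from clear levels. Dsp went from 17.95, 23.6 and 23.7 CPM at day 0 to 42.7, 38.6 and 39.5 CPM at day 4 (log2 fold change 0.89 ± 0.18, adjusted p = 0.00023), and with VC from 35.4, 39.4 and 40.1 CPM to 73.5, 54.1 and 63.4 CPM (0.73 ± 0.17, adjusted p = 0.000732, and 1.55 against day 0 without VC). Jup went from 72.6, 78.2 and 79.6 CPM to 143, 125 and 141 CPM (0.83 ± 0.13, adjusted p = 6.68e-06), and with VC from 75.0, 67.8 and 75.6 CPM to 168, 185 and 172 CPM (1.27 ± 0.13, adjusted p = 5.95e-10). Day 0 and day 4 did not overlap for either gene. Pkp2 fell in WT cells from 3.09, 4.51 and 3.73 CPM to 0.870, 0.636 and 0.110 CPM at day 4 (log2 fold change -2.78 ± 0.42, adjusted p = 3.78e-06), where the 3 endothelial markers summed to at most 1.54 CPM in any library without VC. Dsc2 held 30 reads at WT day 4 + VC against 2 at day 0 + VC, a ratio of 13.1 with a counting interval of 3.32 to 113 (adjusted p = 0.00155 by edgeR), and that call was lost against day 0 without VC (log2 fold change 0.78, adjusted p = 0.308). With 1 library left out the fitted log2 value of Dsc2 ran from 2.99 to 6.30, the highest without day 0 + VC replicate 2, which held both reads.

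**Figure D3:**
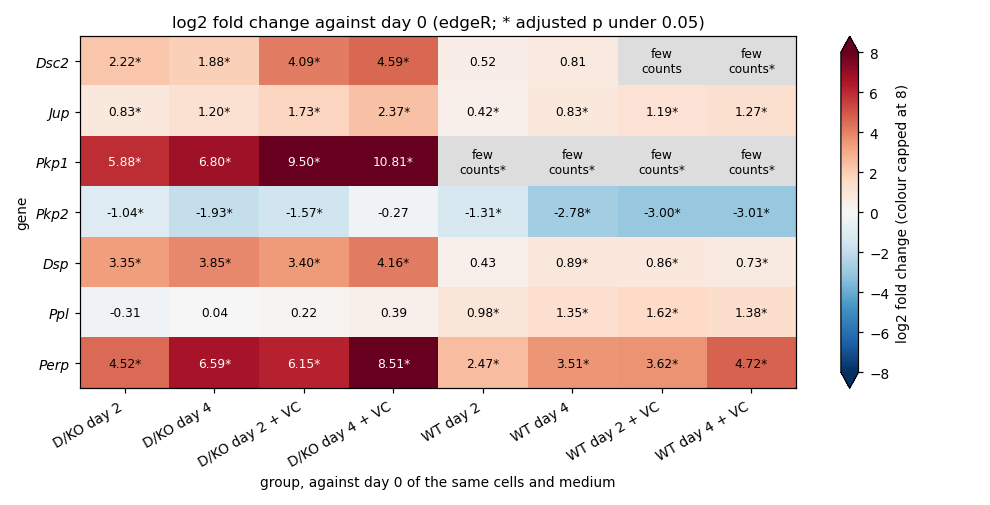
Log2 fold change of the 7 tested desmosome genes against day 0 of the same cells and medium, printed in each cell and shown as colour (capped at 8); a star marks an adjusted p under 0.05 by edgeR, and grey cells have 3 or fewer reads in one group, so no fitted value is shown. Dsp and Jup reach higher values in D/KO than in WT cells, Pkp2 is at -3.01 at WT day 4 + VC but at -0.27 at D/KO day 4 + VC, and Ppl is called in WT cells.

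Whether D/KO and WT cells changed by different amounts was tested as an interaction. At day 4 the change of Dsp was larger in D/KO cells by 2.96 ± 0.30 on the log2 scale (adjusted p = 4.48e-09) and that of Ppl smaller by 1.32 ± 0.34 (log2 difference -1.32, adjusted p = 0.00609), which is 1 of 7 genes higher (7.27% of all genes) and 1 lower (7.04%). At day 4 + VC, 3 of 7 were higher (13.9%) and 1 lower (15.5%): Dsp by 3.43 ± 0.27 (adjusted p = 4.49e-12), Jup by 1.10 ± 0.18 (adjusted p = 1.68e-05), Pkp2 by 2.73 ± 0.60 (adjusted p = 0.000645), and Ppl at -0.99 ± 0.33 (adjusted p = 0.0228). Perp did not pass, with differences of 3.08 (95% interval 0.70 to 5.46, adjusted p = 0.0744) and 3.79 (0.76 to 6.83, adjusted p = 0.053). The latter ran from 0.10 to 4.36 with 1 library left out, the lowest without WT day 0 + VC replicate 1, and both differences passed with DESeq2 and with edgeR without the filter. At day 4 Jup (0.37, adjusted p = 0.182) and Pkp2 (0.85, adjusted p = 0.336) did not pass by edgeR. For Pkp1 no interval of use could be had, since the WT baseline held 2 reads or 1. The Ppl call was lost at day 4 without D/KO day 0 replicate 1 (-0.98), and at day 4 + VC without D/KO day 0 + VC replicate 1, D/KO day 4 + VC replicate 3 or WT day 4 + VC replicate 1 (-0.85 to -0.75). VC itself moved some of these genes at day 0, and the interaction was not tested against day 0 without VC. On that baseline the day 4 + VC log2 fold changes in D/KO and WT cells were 5.82 and 1.55 for Dsp. They were 1.70 and 1.19 for Jup, -1.12 and -3.55 for Pkp2 and 0.68 and 0.83 for Ppl. Genotype, line, sex, age and the levels of endothelial, immune and muscle markers differ together between these cells and cannot be told apart.

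On the log2 scale the step from day 0 to day 2 was larger than the step to day 4 for the 5 genes that rose in D/KO cells. From day 2 to day 4 the D/KO cells gained in Pkp1 (log2 0.93 ± 0.19, adjusted p = 0.000673) and Perp (2.07 ± 0.22, adjusted p = 2.02e-08), or 2 of 7 genes higher and 0 lower (4.5% and 5.07% of all genes). With VC 5 of 7 were higher and 0 lower (7.76% and 7.84%): Perp (2.36 ± 0.22, adjusted p = 3.31e-10), Pkp1 (1.31 ± 0.19, adjusted p = 1.82e-06), Pkp2 (1.30 ± 0.37, adjusted p = 0.0123), Dsp (0.75 ± 0.17, adjusted p = 0.00136) and Jup (0.64 ± 0.13, adjusted p = 0.000355). The Pkp2 call was lost without D/KO day 2 + VC replicate 2 or day 4 + VC replicate 1 (1.11 and 1.14). In WT cells Pkp1 (1.90 ± 0.32) and Jup (0.41 ± 0.13) were higher and Pkp2 (-1.47 ± 0.45) lower (9.25% and 12.3% of all genes), and with VC Pkp1 (2.23 ± 0.23), Dsc2 (2.42 ± 0.74) and Perp (1.10 ± 0.36) were higher and 0 lower (9.95% and 10.1%). Of these WT calls only that of Pkp1 held in all refits that left out 1 library: Jup (0.37 to 0.45 without WT day 2 replicate 2 or 3 or day 4 replicate 1 or 3), Pkp2 (-1.004 and -0.97 without day 2 replicate 1 or day 4 replicate 3), Dsc2 (1.90 to 2.32 without replicate 1 or 3 of either VC group, and 3.90, still called, without day 2 + VC replicate 2) and Perp (0.79 to 1.16 without any day 2 + VC library or day 4 + VC replicate 2 or 3) did not.

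VC alone moved some of these genes. At day 0, without doxycycline, VC raised Dsp in both lines: in D/KO cells from 1.17 to 1.94 CPM up to 3.51 to 7.64 CPM (log2 1.66 ± 0.27, adjusted p = 9.5e-06) and in WT cells from 17.95 to 23.7 CPM up to 35.4 to 40.1 CPM (0.81 ± 0.18, adjusted p = 0.000535), without overlap. In D/KO cells it lowered Jup (-0.66 ± 0.13, adjusted p = 0.000144), Pkp1 (-3.29 ± 0.74, adjusted p = 0.000853) and Dsc2 (-2.66 ± 0.60, adjusted p = 0.000851), so that 1 of 7 genes was higher and 3 lower (12.1% and 14% of all genes). The Dsc2 value was -2.04 without D/KO day 0 + VC replicate 1. In WT cells Dsp was the 1 gene higher (15.1%) and Dsc2 the 1 lower (14.4%), with 18 reads against 2, a ratio of 7.54 with a counting interval of 1.81 to 67.0 (adjusted p = 0.0323), lost without WT day 0 replicate 1 or 2 or day 0 + VC replicate 1 or 3 (fitted log2 fold changes of -2.73 to -2.14, and -5.53, still called, without day 0 + VC replicate 2).

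Other genes moved with VC at day 0 in the same libraries. The fibroblast markers went from 79407 to 118404 CPM up to 183050 to 252512 CPM in D/KO cells and from 51486 to 53290 CPM up to 154847 to 170598 CPM in WT cells, and the endothelial markers of D/KO cells from 484 to 567 CPM down to 170 to 209 CPM. The 6 keratins summed to 10.03 to 15.2 CPM without and 1.55 to 3.09 CPM with VC in D/KO cells, and to 8.23 to 12.1 and 1.77 to 2.09 CPM in WT cells. Skeletal muscle markers fell in D/KO cells (20.8 to 34.4 down to 4.74 to 9.75 CPM) and rose in WT cells (1.82 to 3.01 up to 8.05 to 11.3 CPM). Keratinocyte markers fell in D/KO cells (15.3 to 24.3 down to 9.82 to 14.2 CPM). The part of all these markers in the desmosome gene values was not tested.

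At day 4, VC raised 5 of 7 genes in D/KO cells and lowered 0 (16.8% and 17.7% of all genes). Dsp gained most (1.97 ± 0.18, adjusted p = 6.2e-11), followed by Perp (1.008 ± 0.21, adjusted p = 0.00024), Pkp1 (0.72 ± 0.18, adjusted p = 0.00217), Ppl (0.65 ± 0.25, adjusted p = 0.0423) and Jup (0.50 ± 0.13, adjusted p = 0.00205). The Ppl call was lost without replicate 1 or 2 of either group (0.40 to 0.63). In WT cells 3 of 7 were higher and 0 lower (12% and 10.4%): Pkp1 (2.44 ± 0.23, adjusted p = 2.45e-10), Dsp (0.66 ± 0.17, adjusted p = 0.00404) and Jup (0.36 ± 0.13, adjusted p = 0.0406), the last lost without any single library of both groups (0.30 to 0.39). The VC comparisons share libraries with those against day 0 and are not independent of them.

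The partners of desmosomes were counted from lists of other genes. Of 10 further desmosome genes, 4 passed the filter. Pkp4, Evpl and Kazn were higher and Cdsn was lower than at day 0 in all 4 D/KO comparisons, with log2 fold changes at day 4 of 1.11 ± 0.11 for Pkp4, 6.18 ± 0.40 for Evpl (envoplakin, the partner of periplakin), 0.65 ± 0.12 for Kazn and -3.35 ± 0.21 for Cdsn (corneodesmosin). Of 6 keratins, 3 were higher and 2 lower at D/KO day 4 (18.3% and 18.7% of all genes), and 4 higher and 0 lower at D/KO day 4 + VC (27.9% and 26.2%), where Krt14 stood at 367 CPM and Krt8 at 139 CPM against 0 and 0.0736 CPM at day 0 + VC. Of 7 adherens junction genes, Cdh1 was higher and Cdh3, Cdh2 and Cdh11 were lower at D/KO day 4, and Cdh3 stood at 49.2 CPM at day 0 and 3.16 CPM at day 4. Epithelial transcription factors were low, with 3 of 6 tested and Grhl3 at 4.84 CPM at D/KO day 4 + VC, and of 5 mesenchymal factors 0 were higher and 4 lower at that step (Zeb1, Zeb2, Snai1 and Snai2).

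Keratinocyte markers rose in part with the desmosome genes. The 8 keratinocyte markers summed to 15.3 to 24.3 CPM at D/KO day 0, 602 to 736 CPM at D/KO day 4 and 1740 to 2047 CPM at D/KO day 4 + VC, against 83.4 to 94.9 CPM at WT day 4 and 315 to 358 CPM at WT day 4 + VC. The basal and surface markers Krt5, Krt15 and Epcam stayed under 1 CPM in every D/KO library. Krt14, Trp63, Itgb4, Col17a1 and Cdh1 of the same list each reached at least 1 CPM at D/KO day 4, without and with VC. The part of the keratinocyte markers in the desmosome gene values was not tested. The 6 simple epithelium markers summed to 204 to 239 CPM at D/KO day 4 + VC, with Epcam, Cldn4 and Cldn7 under 1 CPM, and to at most 28.2 CPM in the other reprogramming groups.

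The members did not vary as 1 block over the 12 group means of log2 CPM in the reprogramming table, which share libraries and scaling. Pearson's r was 0.981 between Jup and Perp, 0.960 between Jup and Pkp1 and 0.958 between Pkp1 and Perp, while it was 0.291 between Dsp and Jup and -0.797 between Pkp2 and Ppl. The genes whose group means came closest to the mean standardized profile of the 7 members were Lypd2 (r = 0.983) and Klk10 (0.977), followed by Msra, Slc35g1, Prodh, Hspa12b, Scg5, Atp2a3, Alox5 and Gltp (down to 0.972), over 12 groups. That profile does not stand for every member. The r with it was 0.971 for Perp, 0.960 for Pkp1, 0.948 for Jup and 0.859 for Dsc2. It was 0.505 for Dsp, -0.066 for Pkp2 and -0.304 for Ppl.

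Between untreated D/KO and WT cells the genes differed in both experiments, and not always in the same direction. At day 0 of reprogramming, 5 of 7 genes were higher in D/KO and 2 lower (22.1% and 21.1% of all genes). Higher were Jup (1.08 ± 0.13, adjusted p = 2.38e-08), Pkp2 (1.14 ± 0.33, adjusted p = 0.00594), Dsc2 (2.06 ± 0.53, adjusted p = 0.00171), Perp (2.56 ± 0.74, adjusted p = 0.00544) and Pkp1, with 48 reads against 2 (ratio 27.3, counting interval 7.15 to 232, adjusted p = 3.01e-05). The Dsc2 value was 2.67 without WT day 0 replicate 1, and the fitted log2 value of Pkp1 ran from 3.99 to 7.10 with 1 library left out. Lower were Dsp (-3.69 ± 0.24, adjusted p = 4.54e-15) and Ppl (-2.21 ± 0.24, adjusted p = 2.58e-09).

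In the controls of the inhibitor table, tested over 15164 genes, 3 of 6 genes were higher in D/KO and 2 lower (21.3% and 18.9%). Jup (0.47 ± 0.09, adjusted p = 0.000678) and Dsc2 (3.33 ± 0.78, adjusted p = 0.00259) were higher and Ppl lower (-3.32 ± 0.26, adjusted p = 3.04e-08), as at day 0. The signs of Dsp (3.12 ± 0.55, adjusted p = 0.000221) and Perp (-2.44 ± 0.48, adjusted p = 0.000646) were opposite to those at day 0. Dsp stood at 0.149, 0.504 and 0.0412 CPM in the WT control libraries and at 1.58, 2.10 and 2.54 CPM in D/KO control, without overlap, and the log2 difference was 4.34 without WT control replicate 2, which stood apart. Without that library 3 genes were still higher and 2 lower. The WT cells of the 2 tables are different lines and ages, the D/KO cells differ in line, sex and age, and the tables were scaled separately. In the controls of the inhibitor table, age (4 against 14 weeks) and genotype cannot be told apart. Pkp1 held 11 reads in D/KO control and 0 in WT control, at least 4.63-fold higher at a floor of 3 reads over the group. The Jup call was lost in a fit of all 24 libraries (0.45, adjusted p = 0.0792). The endothelial markers summed to 223 to 271 CPM in D/KO control and 24.6 to 37.7 CPM in WT control. Skeletal muscle markers were also higher in D/KO control (10.2 to 12.6 against 2.09 to 3.76 CPM). Lower were the keratinocyte markers (10.4 to 14.9 against 16.7 to 21.4 CPM), the keratins (11.2 to 13.7 against 14.4 to 29.2 CPM) and the fibroblast markers (78709 to 83872 against 89121 to 90863 CPM). The part of these markers in the desmosome gene values was not tested.

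Inhibitors of ALK5, the type I receptor of TGFβ, raised Dsp, Ppl and Perp in D/KO cells, while Jup did not pass the test with any compound. The Jup libraries with Vactosertib (129 to 135 CPM) and with DMH-1 (119.5 to 140.3 CPM) still lay above those of control (109.7 to 119.03 CPM). Called higher were 3 of 6 genes with Repsox and 0 lower (13.4% and 11.8% of all genes), 3 and 0 with Vactosertib (11.8% and 10.3%), which also inhibits ALK2, 3 and 1 with A83-01 (16.4% and 16.2%), and 1 and 0 with DMH-1, an ALK2 inhibitor (5.96% and 3.79%). The median log2 fold change of the 6 genes was 1.06, 1.009, 0.76 and 0.29 in this order, beside medians of all genes of 0.00 to 0.02. All 4 comparisons share the same 3 control libraries. The summed fibroblast markers were at 78709 to 83872 CPM in D/KO control, at 40301 to 52060 CPM with the 3 ALK5 inhibitors and at 67673 to 85210 CPM with DMH-1. The keratins, simple epithelium markers and immune markers were higher with each ALK5 inhibitor than in D/KO control, without overlap, and the keratinocyte markers with Vactosertib and A83-01 but not Repsox. The 6 keratins summed to 11.2 to 13.7 CPM in control and to 16.4 to 28.4, 16.9 to 21.8 and 16.5 to 26.7 CPM with Repsox, Vactosertib and A83-01, and the 6 simple epithelium markers, which share 3 of these genes, to 10.6 to 12.6 against 15.9 to 28.4, 16.5 to 21.7 and 16.4 to 25.6 CPM. The 3 immune markers summed to 6.32 to 9.79 CPM in control and to 11.8 to 18.5, 10.7 to 20.9 and 10.7 to 16.5 CPM. With DMH-1 these lists overlapped control. The part of these markers in the desmosome gene values was not tested. Without Repsox replicate 2, which stood apart, the same 3 genes were called with Repsox, at log2 fold changes of 2.30 for Dsp, 1.57 for Perp and 3.88 for Ppl, where that library had the lowest Dsp and Ppl and the highest Perp of its group.

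Ppl had the largest fitted change of the 6 genes with each ALK5 inhibitor. Its control libraries held 1.32, 0.878 and 1.12 CPM, those with Repsox 14.4, 8.64 and 18.5 CPM, those with Vactosertib 8.88, 13.0 and 12.4 CPM, those with A83-01 22.3, 28.1 and 23.0 CPM and those with DMH-1 2.23, 2.62 and 2.19 CPM. Every treated library lay above every control library. Against control the log2 fold change was 3.63 ± 0.26 with Repsox (adjusted p = 3.04e-08), 3.37 ± 0.27 with Vactosertib (adjusted p = 1.11e-07), 4.45 ± 0.27 with A83-01 (adjusted p = 1.79e-09) and 1.08 ± 0.28 with DMH-1 (adjusted p = 0.0217). The DMH-1 call was lost without D/KO control replicate 2 or 3 or DMH-1 replicate 2 (0.94 to 1.09). The level of WT control was 11.3 ± 0.389 CPM.

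Dsp stood at 1.58, 2.10 and 2.54 CPM in control, at 9.37, 4.18 and 10.9 CPM with Repsox, at 4.32, 9.11 and 7.83 CPM with Vactosertib and at 11.2, 9.85 and 11.2 CPM with A83-01. These 9 libraries lay above the controls, with log2 fold changes of 1.99 ± 0.38 (adjusted p = 0.000944), 1.80 ± 0.39 (adjusted p = 0.00266) and 2.39 ± 0.38 (adjusted p = 0.000119). With DMH-1 it held 2.57, 2.745 and 2.94 CPM, also above every control library, at a log2 difference of 0.42 ± 0.40 (adjusted p = 0.6).

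Perp held 7, 6 and 5 reads in control, 25, 62 and 24 with Repsox, 17, 35 and 23 with Vactosertib, 18, 23 and 27 with A83-01 and 25, 15 and 12 with DMH-1. In CPM each treated library, those with DMH-1 included, lay above the controls (at most 0.298 CPM). The log2 fold change was 2.23 ± 0.48 with Repsox (adjusted p = 0.00249), 1.91 ± 0.50 with Vactosertib (adjusted p = 0.0103), 1.52 ± 0.50 with A83-01 (adjusted p = 0.0276) and 1.06 ± 0.51 with DMH-1 (adjusted p = 0.232). The A83-01 call was lost without any of the control libraries or A83-01 replicate 2 or 3 (1.39 to 1.53). Of 8 other p53 targets, 4 were called higher with Repsox (13.4% of all genes), 4 with Vactosertib (11.8%), 5 with A83-01 (16.4%) and 2 with DMH-1 (5.96%), and 0 lower with any.

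Pkp2 was called with A83-01 alone (-0.91 ± 0.21, adjusted p = 0.00244), with 4.31, 3.74 and 3.55 CPM against 6.69, 8.98 and 6.08 CPM in control. The endothelial markers were also lower in those libraries, with 71.5 to 108 CPM summed against 223 to 271 CPM in control, and their part in the value of Pkp2 was not tested. Cdsn and Kazn were the other desmosome genes called higher with the 3 ALK5 inhibitors, and Cdsn was lower with DMH-1.

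**Figure D4:**
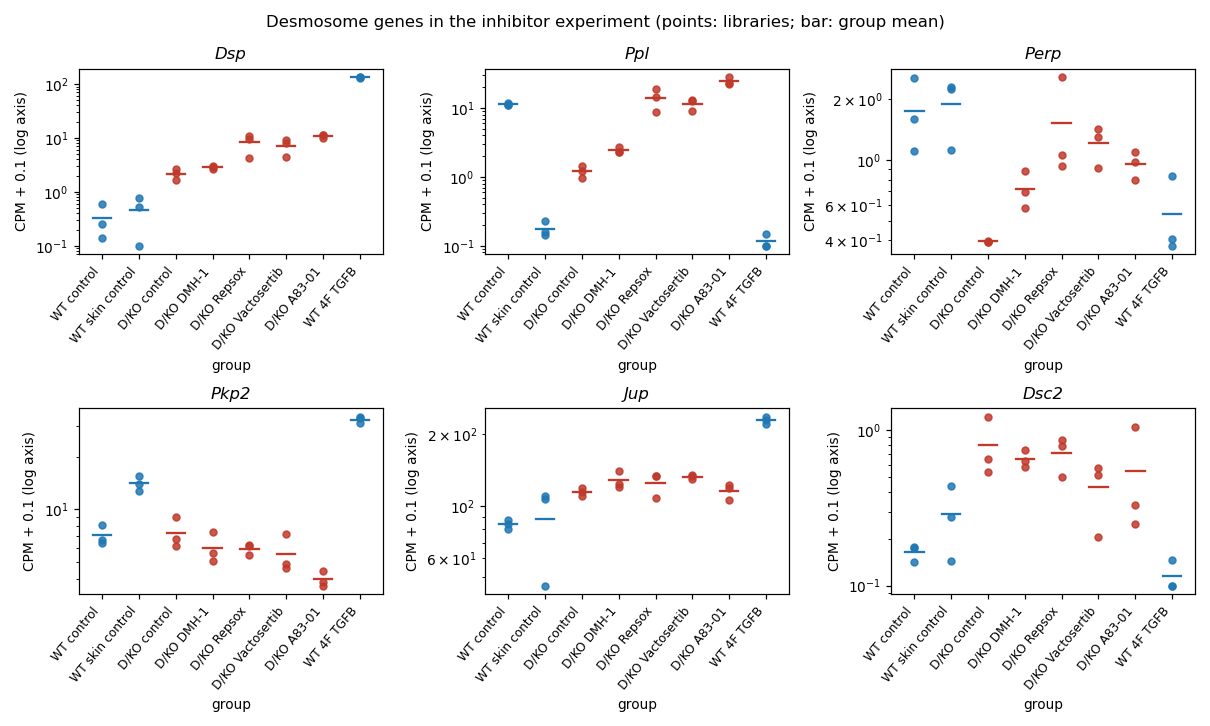
CPM + 0.1 (log axis) of 6 desmosome genes in the 8 groups of the inhibitor experiment; points are libraries, bars are group means of 3, red marks D/KO and blue the other cells. Dsp and Ppl stand higher with Repsox, Vactosertib and A83-01 than in D/KO control, Jup lies within 105 to 140.3 CPM in all D/KO libraries, and WT 4F TGFB has the highest Dsp, Pkp2 and Jup.

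In 2 pairs, compounds were given at the same dose and time. At 1 µM, A83-01 gave higher Dsp (1.97 ± 0.36, adjusted p = 0.000675) and Ppl (3.37 ± 0.24, adjusted p = 2.16e-08) and lower Pkp2 (-0.62 ± 0.20, adjusted p = 0.0343) than DMH-1, or 2 of 6 higher and 1 lower (11.9% and 13.4% of all genes). The Pkp2 call was lost without DMH-1 replicate 2 or 3 or A83-01 replicate 2 or 3 (-0.67 to -0.43). The other differences did not pass, with intervals of -0.35 to 0.04 for Jup, -0.47 to 1.38 for Perp and -1.56 to 0.94 for Dsc2.

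At 0.1 µM, none of the 6 genes passed a test between Repsox and Vactosertib. By edgeR 0 of 6 genes were higher and 0 lower, as were 0% and 0% of all 15164 genes, while 452 genes had an unadjusted p under 0.05 and DESeq2 called 2 genes. Without Repsox replicate 2, 1366 genes had such a p, and with the compared groups alone 213, with 0 called in both. The log2 differences in Perp and Dsp were -0.34 and 0.50 without that library, neither called. The intervals of the log2 difference, Repsox over Vactosertib, were -0.54 to 0.92 for Dsp, -0.29 to 0.10 for Jup, -0.34 to 0.52 for Pkp2, -0.45 to 2.15 for Dsc2, -0.53 to 1.19 for Perp and -0.18 to 0.72 for Ppl. The intervals of Dsc2 and Perp still allow a difference of over 1 on this scale. Repsox and A83-01 were given at different doses, and their values stand side by side above without a comparison.

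The control WT fibroblasts from skin and from tail tip differed in Ppl, Pkp1 and Pkp2. The labels do not say whether both came from the same animal, so site, animal and culture cannot be told apart. Ppl held 299, 302 and 266 reads in the tail tip libraries and 1, 3 and 1 in those of skin (log2 fold change -7.06 ± 0.39, adjusted p = 2.32e-11, over 15652 genes). Pkp1 went the other way, with 5, 36 and 16 reads in skin and 0 in all 3 tail tip libraries, at least 23.3-fold higher at a floor of 3 reads over the group (adjusted p = 0.000564 by edgeR), and Pkp2 was higher in skin (1.00 ± 0.18, adjusted p = 0.00018), with 12.7, 13.9 and 15.4 CPM against 6.597, 8.06 and 6.30 CPM. That is 2 of 7 genes higher and 1 lower (18.1% and 16.1% of all genes), with no overlap between the groups for these 3 genes. Without skin replicate 1, which stood apart, 3 were higher and 1 lower, with -6.76 for Ppl and 1.07 for Pkp2, and without skin replicate 2 Ppl was at -7.65. Without WT control replicate 2 the count was 2 higher and 1 lower, as with all libraries. Skin libraries also held more of the skeletal muscle markers (57.4 to 84.1 against 2.09 to 3.76 CPM summed over 3 genes) and of the endothelial markers (105 to 200.1 against 24.6 to 37.7 CPM). The 6 simple epithelium markers (44.4 to 101 against 13.6 to 28.2 CPM) and the 6 keratins (70.1 to 126 against 14.4 to 29.2 CPM, sharing genes with the former) were also higher in skin, the keratinocyte markers were not (7.37 to 15.1 against 16.7 to 21.4 CPM), and their part in these values was not tested.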

How the data were processed

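Libraries of polyA RNA were sequenced in paired-end mode. The authors trimmed reads with Trim Galore, aligned them to GRCm39 with HISAT2 and counted them per gene with featureCounts, and deposited raw counts in 1 table per experiment; versions, annotation release and strandedness are not given in the sources used here. Replicates were not pooled. Ensembl IDs were matched to symbols in GENCODE M39 (98.7% of 56980 IDs). The members and all gene lists were chosen with earlier results of these data known.

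Genes were kept by filterByExpr (minimum count 10, total 15) and tested with edgeR 4.0.16 (TMM, quasi-likelihood) in R 4.3.3, with 1 group mean per group, over 36 libraries of the reprogramming table, 18 of the inhibitor table (without the skin and WT 4F TGFB groups) and, for skin, all 24. A gene was called at a Benjamini-Hochberg adjusted p under 0.05. The SE of a log2 fold change is its size over the square root of F. Ratios against groups of 1 to 3 reads carry exact (Clopper-Pearson) 95% counting intervals, and those against 0 use a floor of 3 reads over the group; both cover counting error only. Alternatives were DESeq2 1.42.0, its size factors in edgeR, no filter, only the compared groups, day 0 without VC as baseline, and each library left out. The test was checked on simulated counts. Libraries of a group differed by more than counting noise (variance at least 3.25 times), so none was a repeat deposit.
Beside the 10 members, which were all described, list genes were named where they were called or defined a marker list. The 10 genes whose group means had the highest r with the mean profile of the tested members were named as well. The doses of the inhibitors were taken from the study's text, since the labels give none.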

Additional observations from a re-analysis of the deposited data

Results flagged for a closer look

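In all, 6 differences between the D/KO and the WT response passed a test of the difference itself (edgeR interaction, adjusted p under 0.05). At day 4 they were those of Dsp (2.96 on the log2 scale) and Ppl (-1.32). At day 4 + VC they were those of Dsp (3.43), Jup (1.10), Pkp2 (2.73) and Ppl (-0.99). The latter depend on day 0 + VC as the baseline. Against day 0 without VC the changes in D/KO and WT cells were 1.70 and 1.19 for Jup and 0.68 and 0.83 for Ppl. Their difference on that baseline was not tested. Both lines start from different levels of Dsp and Ppl, and the endothelial markers are present in D/KO cells and near 0 in WT cells, while immune markers are higher in WT cells; the part of any of these in these differences was not tested.

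The WT 4F TGFB libraries entered no comparison, and 4 desmosome genes stood above every WT control library of the same table there: Dsp at 133 CPM (131, 135 and 135 by library against at most 0.504), Jup at 229 CPM (against at most 86.7), Pkp2 at 32.5 CPM (against at most 8.06) and Pkp1 at 5.67 CPM (against 0). Ppl, at 11.3 CPM in WT control, had 1 read over these 3 libraries. These cells are another line and age than WT control, the labels do not say what TGFB stands for, and the difference was not tested. Cells of the same label, sex and age stood as WT day 0 in the reprogramming experiment, which was scaled separately. There Dsp held 17.95 to 23.7 CPM, Jup 72.6 to 79.6, Pkp2 3.09 to 4.51, Pkp1 at most 0.107 and Ppl 14.6 to 18.9 CPM. In WT 4F TGFB the 8 fibroblast markers summed to 66739 to 71107 CPM, against 89121 to 90863 CPM in WT control, with none of the 8 under 1 CPM. Endothelial (0.461 to 1.24 against 24.6 to 37.7 CPM) and keratinocyte markers (1.60 to 2.98 against 16.7 to 21.4 CPM) were also lower. So were melanocyte markers (0.571 to 1.06 against 3.58 to 4.38 CPM). Skeletal muscle (13.6 to 16.1 against 2.09 to 3.76 CPM) and immune markers (13.6 to 16.5 against 4.19 to 6.56 CPM) were higher. The part of these markers in the desmosome gene values was not tested.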

How the results depend on the processing

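Of 109 called values, 92 held in each refit that left out 1 library and 17 lost the call in at least 1, each named in the report; none changed sign in an alternative that gave it a value, and none was lost with DESeq2, with its size factors or without the filter. DESeq2 was run on all genes with a read, with its own filter, so it changes the tool and the filter together. In a fit of the compared groups alone 99 kept the call, some were not tested because the gene did not pass the filter there, and 3 lost it, namely Pkp2 at WT day 2 (-1.31, adjusted p = 0.065), Pkp2 from WT day 2 to day 4 (-1.46, adjusted p = 0.104) and Ppl with VC at D/KO day 4 (0.64, adjusted p = 0.172). Against day 0 without VC, 18 of the 28 fold changes of the VC arms moved by over 1.5 times, 23 of 24 calls held, Pkp2 (-1.12) and Ppl (0.68) at D/KO day 4 + VC gained a call and Dsc2 at WT day 2 + VC changed sign (1.08 to -1.65, neither called). The number of desmosome genes called moved by over 1.5 times in 8 comparisons. At WT day 2 it was 5, 2 with the compared groups alone, where 4 genes and not 7 passed the filter, and 2 to 5 with 1 library left out. From day 2 to day 4 it was 2 in D/KO cells and 3 in WT cells, and 4 and 5 both without the filter and with DESeq2, each over all 10 genes, and for VC at WT day 4 it was 3 and 5 without the filter. With 1 library left out it was 1 to 2 from WT day 2 + VC to day 4 + VC (3 with all), 1 to 2 for VC at WT day 0 (2), 1 to 3 for the interaction at day 4 (2) and 0 to 1 for DMH-1 (1). Of 73 values without a call, 24 changed sign and 11 gained a call with 1 library left out. Among the 24, those printed in the report were Ppl at D/KO day 2 (-0.55 to 0.032) and day 4 (-0.29 to 0.38), Dsc2 at WT day 2 (-0.26 to 1.12), at WT day 2 + VC (-0.39 to 3.88) and in A83-01 over DMH-1 (-1.52 to 0.10), and Dsp (-0.076 to 0.50), Pkp2 (-0.022 to 0.33) and Perp (-0.34 to 0.61) in Repsox over Vactosertib. Over all genes, a fit of the compared groups alone called 2523 in place of 4140 for VC at D/KO day 0, 2256 in place of 3820 with Repsox, 6400 in place of 3880 at WT day 4 and 2591 in place of 5348 for skin. No paired analysis was possible because the library numbers in the titles run on through the series and the replicate numbers were given in accession order. Depth limits what can be said of Dsg2, Dsc3 and Pkp3.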
